A study of Mus musculus with 55 samples.

Results

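The liver response to a Gls2 hairpin in OTC mice was read from 18 of the 55 RNA-seq libraries of a series on glutaminase knockdown in a urea cycle disorder model. The 10 OTC sh-Gls2 libraries and the 8 OTC control libraries were chosen by their labels alone, 1 library per mouse, and the comparison runs across all expressed genes. Both groups were male Otcspf-ash mice (B6EiC3Sn a/A-Otcspf-ash/J, abbreviated OTC), 5 months of age at collection. An adeno-associated virus (AAV) carrying a short hairpin RNA against Gls2, or a scrambled hairpin in the controls, was given by vein at 4 months of age. Both groups then changed from chow to a 40% protein diet at week 2 and stayed on it until the livers were taken at week 5. The 8 OTC sh-Glud1 livers, and the 10 WT sh-Gls2 and 10 WT control livers (B6EiC3SnF1/J, also male and 5 months of age), had the same diet and are used below only to show where the OTC sh-Gls2 response differs. The hairpin sequence, its promoter and the capsid are not given in the sources used here. The study asked whether lowering Gls2 would relieve the ammonia load of mice with a weak urea cycle.

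Gls2 encodes liver-type glutaminase, a mitochondrial enzyme of periportal hepatocytes that splits glutamine into glutamate and free ammonia next to the first enzyme of the urea cycle. Glud1, glutamate dehydrogenase, releases a further ammonia from glutamate. The urea cycle turns ammonia into urea, with Cps1 and Otc in the mitochondrion and Ass1, Asl and Arg1 in the cytosol, and what passes the periportal cells is caught by glutamine synthetase in hepatocytes around the central vein. The spf-ash allele of the X-linked Otc gene impairs splicing and leaves little enzyme.

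Gls2 (ENSMUSG00000044005, chr10:128194457-128210004, plus strand, GRCm38) had 159 to 236 CPM (median 201) in sh-Gls2 livers, against 332 to 554 CPM (median 449) in controls. No sh-Gls2 liver reached the lowest control. The fitted level in sh-Gls2 livers was 45.1% of the control level, with log2 fold change −1.15 ± 0.10, adjusted p = 5.47e-13 in edgeR's quasi-likelihood test over all genes. An exact permutation test of the mean log2 CPM over all 43758 splits of the 18 livers gave a two-sided p = 4.57e-05, the smallest that this design allows. CPM are counts scaled to a common library size, here after adjustment by the trimmed mean of M values (TMM). Log2 fold changes throughout are fitted values ± SE, where the SE is the absolute log2 fold change divided by the square root of the test's F statistic. In WT mice the same vector left 159 to 255 CPM in sh-Gls2 livers, against 339 to 578 CPM in WT controls.

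The other enzyme targeted in the series and the gene mutated in the strain differed less or not beyond their spread. Glud1 (chr14:34310727-34345265) had 933 to 1181 CPM (median 1053) in sh-Gls2 livers, against 892 to 1234 CPM (median 1058) in controls, without a call (log2 fold change −0.017 ± 0.12, adjusted p = 0.924). Otc (chrX:10252305-10321024) had 59.5 to 87.2 CPM (median 75.4) in sh-Gls2 livers, against 43.02 to 79.1 CPM (median 61.5) in controls, which was a rise of 0.27 ± 0.084 on the log2 scale (adjusted p = 0.00863) with the groups overlapping. That call was lost without control mice 3 and 67 (log2 fold change 0.19, adjusted p = 0.0743) and when only these 2 groups were fitted (adjusted p = 0.0718). WT control livers held 473 to 596 CPM of Otc, so the low Otc level matched the strain label in every OTC liver of both groups.

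**Figure D1:**
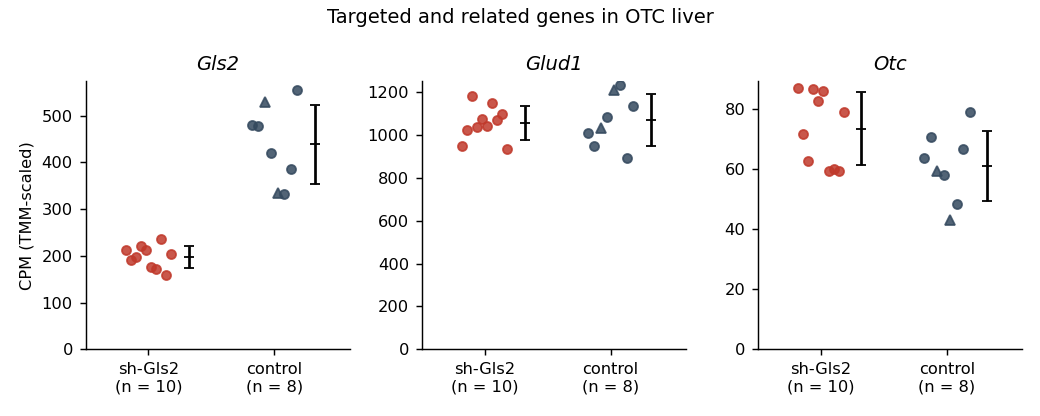
CPM of Gls2, Glud1 and Otc in each OTC sh-Gls2 liver (red, left) and each OTC control liver (blue, right), with the mean and SD as black bars and triangles for control mice 3 and 67. The Gls2 values of the sh-Gls2 livers end at 236 CPM, below the lowest control at 332 CPM, while the groups overlap for Glud1 and Otc.

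Total counts were 15033685 to 21017325 in sh-Gls2 livers and 15629514 to 20717610 in controls, and the deposited table gave 13311 genes with enough counts to test of 24475 listed. The first principal component of the 18 livers, with 30.01% of the variance, placed all sh-Gls2 livers on one side and all controls on the other. A pair of control livers stood apart from the rest. The root mean square distance of a library from its group's median, on the log2 scale, was 0.702 for control mouse 3 and 0.558 for control mouse 67, against 0.359 to 0.423 in the other 6 controls. Gene group counts whose balance turned, or that moved by over 1.5 times, without those livers are given below with and without them.

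Of the genes tested, 2672 rose (20.1%) and 2993 fell (22.5%) in sh-Gls2 livers at an adjusted p below 0.05, which is 42.6% of all genes in either direction. Each gene group below is read against these shares. Some genes belong to several groups, so the counts of different groups are not independent. A change of at least 2-fold was seen in 472 of the genes that rose and 143 of those that fell. All sh-Gls2 livers lay above all controls for 478 genes (3.59%) and below all controls for 419 (3.15%). Without control mice 3 and 67, 2156 of the 2672 and 2316 of the 2993 kept their call and direction. The balance was the other way with limma on log2(TPM + 1), a fit that differs in test and unit. Of the genes tested here, 11255 averaged 1 TPM or more and entered that fit, with 2508 higher and 2067 lower.

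**Figure D2:**
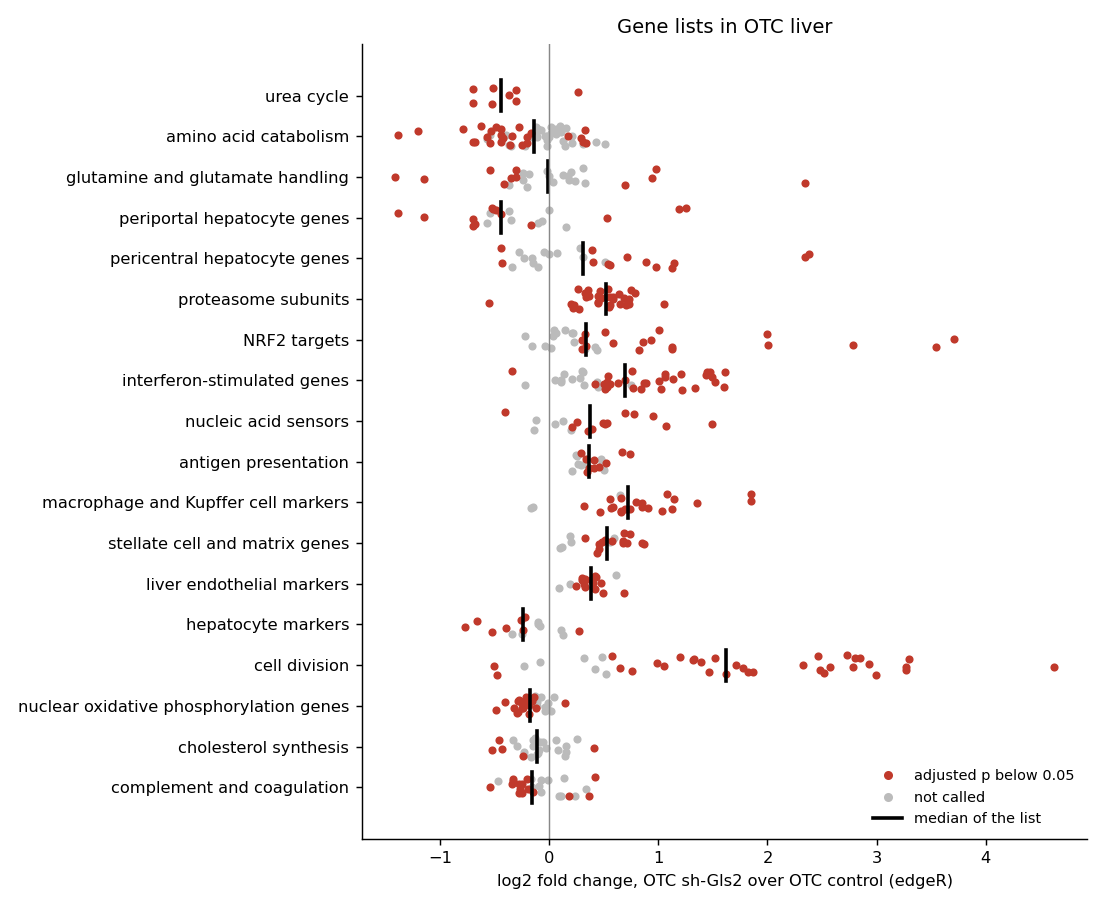
Log2 fold change of OTC sh-Gls2 over OTC control for each tested gene of 18 gene lists, with called genes in red, others in grey and the list median as a black bar. Proteasome subunits sit together right of 0 with a single red point on the left, cell division genes spread furthest to the right, and urea cycle genes lie left of 0 except Otc.

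Urea cycle genes were lower as a group. Of 8 genes, 7 fell and Otc rose, with a list median of −0.44 against −0.02 over all genes tested. Cps1, carbamoyl phosphate synthetase and the entry step of the cycle, had 4713 to 6264 CPM (median 5615) in sh-Gls2 livers, against 5710.3 to 12699.6 CPM (median 7265) in controls (log2 fold change −0.53 ± 0.12, adjusted p = 4.47e-04). Arg1, the arginase that releases urea, had 1028 to 1571 CPM (median 1175) in sh-Gls2 livers, against 1025 to 3556 CPM (median 1643) in controls (log2 fold change −0.70 ± 0.15, adjusted p = 1.78e-04). Control mice 3 and 67 held the 2 highest control values of both genes, and also of Ass1, Asl and Slc25a15. Ass1, argininosuccinate synthetase, had 3671 to 4638 CPM (median 4034) in sh-Gls2 livers, against 4489 to 10058 CPM (median 4797) in controls, with the 2 highest controls at 10058 and 8056 CPM.

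Without those 2 mice all 7 log2 fold changes were still negative but nearer to 0. Cps1 and Arg1 then changed at −0.30 and −0.35 (adjusted p = 0.0326 and 0.0322), while Ass1 at −0.22 and Asl, the lyase that follows it, at −0.065 lost their calls (adjusted p = 0.102 and 0.817). Nags, which makes the activator of Cps1, fell by 0.31 ± 0.08 (−0.25 without the 2 mice). The aspartate-glutamate carrier Slc25a13 fell by 0.31 ± 0.082 (−0.22 without them) and the ornithine carrier Slc25a15 at −0.37 ± 0.15 (−0.091 without them, adjusted p = 0.629). In all, 4 of the 8 genes were lower and none was higher without mice 3 and 67. Otc lost its call without them, as above.

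**Figure D3:**
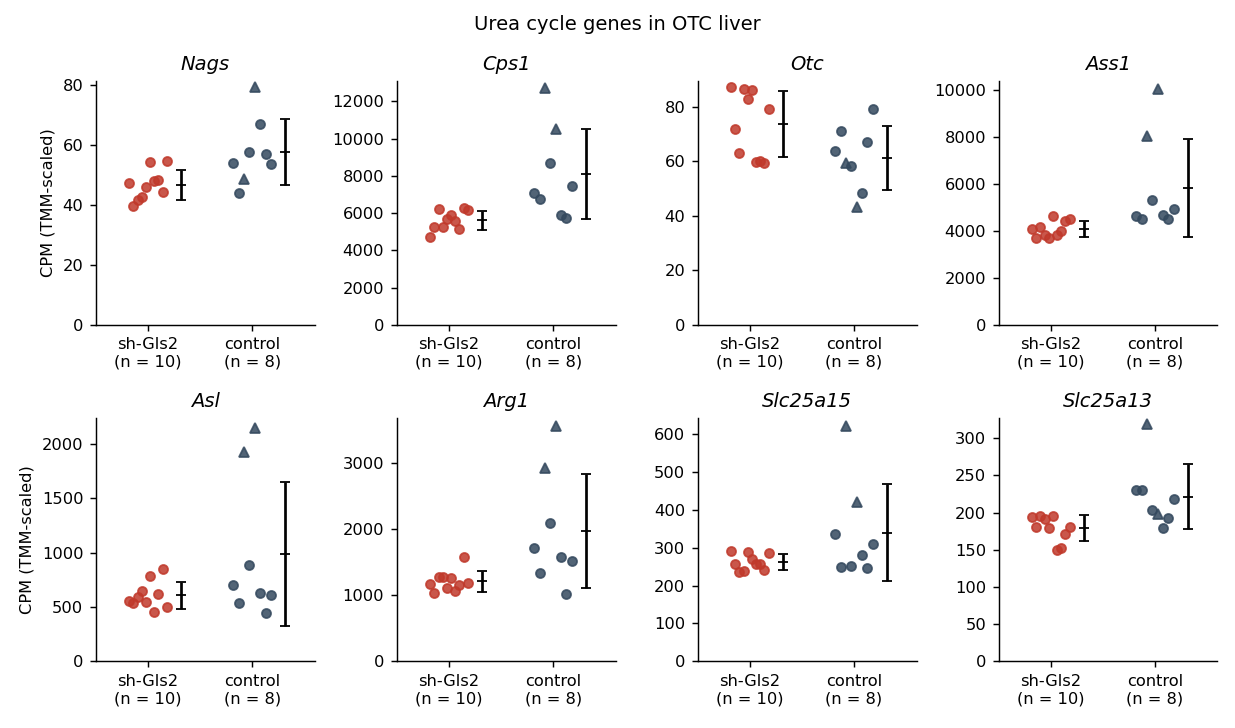
CPM of the 8 urea cycle genes in each OTC sh-Gls2 liver (red, left) and each OTC control liver (blue, right), with mean and SD as black bars and triangles for control mice 3 and 67. The triangles are the 2 highest control points for Cps1, Ass1, Asl, Arg1 and Slc25a15, and Otc is the gene that is higher in sh-Gls2 livers.

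With all livers, enzymes that break down amino acids fell more often than they rose, with 21 of 58 lower and 5 higher (median −0.14). The clearest were not tied to the 2 outlying controls. Cbs, which commits homocysteine to cysteine synthesis, had 328 to 419.8 CPM (median 369) in sh-Gls2 livers, against 456 to 725 CPM (median 566) in controls, with no overlap (log2 fold change −0.63 ± 0.075, adjusted p = 2.05e-09). Amdhd1, an enzyme of histidine breakdown to glutamate, had 101 to 189.8 CPM (median 147) in sh-Gls2 livers, against 203 to 330.2 CPM (median 224) in controls, again with no overlap (log2 fold change −0.70 ± 0.10, adjusted p = 2.59e-07). Ftcd, which takes the last histidine carbon onto folate, fell by 0.49 ± 0.073, and Prodh2, which opens hydroxyproline breakdown, fell by 0.44 ± 0.073 without overlap. Tdo2 and Hpd, of tryptophan and tyrosine breakdown, fell, with log2 fold changes of −0.79 ± 0.15 and −0.54 ± 0.11 (−0.39 and −0.36 without mice 3 and 67). Tat, tyrosine aminotransferase, depended on them: its median was 1678 CPM in sh-Gls2 livers and 1818 CPM in controls, and its log2 fold change of −0.68 ± 0.27 became 0.11 without them (adjusted p = 0.752). Branched-chain enzymes were among the 5 that rose, with Mccc1 at 0.31 ± 0.072 and Hibch at 0.33 ± 0.077. Without the 2 mice, the list counted 16 lower and 12 higher. Its median was then −0.023, against −0.0029 over all genes tested.

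Glutamine and glutamate handling was mixed, with 4 of 26 genes higher and 7 lower and a median of −0.011. Leaving out mice 3 and 67 turned the balance, to 7 higher and 5 lower (median 0.038). Rhbg, an ammonia transporter of perivenous hepatocytes, had 3.80 to 10.96 CPM (median 6.62) in sh-Gls2 livers, against 0.892 to 2.14 CPM (median 1.20) in controls, so every sh-Gls2 liver exceeded every control (log2 fold change 2.34 ± 0.20, adjusted p = 9.25e-14). Slc38a1 and Slc1a2, carriers of glutamine and of glutamate, rose by 0.94 ± 0.20 and 0.97 ± 0.31, and the large neutral amino acid carrier Slc7a5 by 0.69 ± 0.20. Slc38a4, an amino acid carrier of hepatocytes, had 747 to 1083 CPM (median 946) in sh-Gls2 livers, against 1026 to 1903 CPM (median 1304) in controls (log2 fold change −0.54 ± 0.10, adjusted p = 2.15e-05). Got1, cytosolic aspartate aminotransferase, fell by 1.42 ± 0.33. Its controls ran to 2564 CPM in mouse 3 around a median of 374 CPM, and without mice 3 and 67 the change was −0.26 (adjusted p = 0.461). Glul, glutamine synthetase, had 162 to 487 CPM (median 281) in sh-Gls2 livers, against 92.3 to 473 CPM (median 324) in controls. Its groups overlapped widely and were not separated by the fit (log2 fold change −0.0042 ± 0.24, adjusted p = 0.99).

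Of 25 pericentral hepatocyte genes, 11 rose and 2 fell (median 0.31), against 3 higher and 10 lower of 21 periportal genes (median −0.44). Slc13a3, a dicarboxylate carrier, had 22.04 to 33.5 CPM (median 31.2) in sh-Gls2 livers, against 1.89 to 12.1 CPM (median 5.24) in controls (log2 fold change 2.38 ± 0.21, adjusted p = 4.45e-13), with no overlap. Lect2, a secreted protein of perivenous cells, and Cyp1a2, a perivenous cytochrome, also did not overlap, at 1.15 ± 0.17 and 0.89 ± 0.21. Glul and Axin2, both induced by Wnt signals around the central vein, had no call (0.28 ± 0.18 for Axin2), and the 2 members that fell were Notum, a Wnt antagonist (−0.44 ± 0.14), and the cytochrome Cyp2c29 (−0.44 ± 0.14). Without mice 3 and 67 the medians were 0.26 and −0.16, with 10 higher and 3 lower pericentral genes and 3 higher and 6 lower periportal genes.

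Proteasome genes rose together. The proteasome is the barrel-shaped protease that degrades ubiquitin-tagged proteins, built from a core (Psma and Psmb genes) and a cap with ATPases (Psmc) and other lid or base subunits (Psmd). Of 31 subunit genes, 30 rose and 1 fell, with a median of 0.52, and all sh-Gls2 livers lay above all controls for 26 of them. Their summed level was 3089 to 3498 CPM in sh-Gls2 livers, against 2231 to 2439 CPM in controls. Psmd14, the deubiquitinase of the lid, had 67.8 to 87.2 CPM (median 73.1) in sh-Gls2 livers, against 30.4 to 39.1 CPM (median 37.6) in controls (log2 fold change 1.05 ± 0.068, adjusted p = 8.45e-18). Psmc6, an ATPase, had 118 to 139 CPM (median 127) in sh-Gls2 livers, against 74.2 to 79.5 CPM (median 76.04) in controls (log2 fold change 0.74 ± 0.046, adjusted p = 2.77e-18). Psmb7, a trypsin-like core subunit, had 135 to 154 CPM (median 142) in sh-Gls2 livers, against 84.9 to 97.2 CPM (median 92.3) in controls (log2 fold change 0.64 ± 0.042, adjusted p = 1.26e-17). All 3 were without overlap.

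A pair of subunit genes went against the rest. Psmd3, a lid subunit and the exception on the list, had 42.2 to 55.6 CPM (median 49.4) in sh-Gls2 livers, against 65.3 to 75.5 CPM (median 72.2) in controls (log2 fold change −0.56 ± 0.048, adjusted p = 1.48e-13). Shfm1, also named Sem1, is a small lid subunit that was not on the list and was chosen after its values were seen. It had 10.6 to 14.1 CPM (median 12.3) in sh-Gls2 livers, against 28.3 to 35.1 CPM (median 31.8) in controls (log2 fold change −1.36 ± 0.075, adjusted p = 1.86e-20), and every sh-Gls2 liver was below every control for both genes. Psmd2 and Psmc4 of the cap and Psma1 of the core rose by 0.73 ± 0.049, 0.79 ± 0.055 and 0.75 ± 0.059. The 30 to 1 split was the same without mice 3 and 67, under size-factor scaling, on the TPM scale and when only the 2 groups were fitted. Of the factors known to drive proteasome genes, Nfe2l1 had a log2 fold change of 0.019 ± 0.099 (adjusted p = 0.9) and Nfe2l2, which encodes NRF2, 0.42 ± 0.17 (adjusted p = 0.0416), both chosen after their values were seen. These are RNA levels, and the part of either factor in the proteasome rise was not tested.

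**Figure D4:**
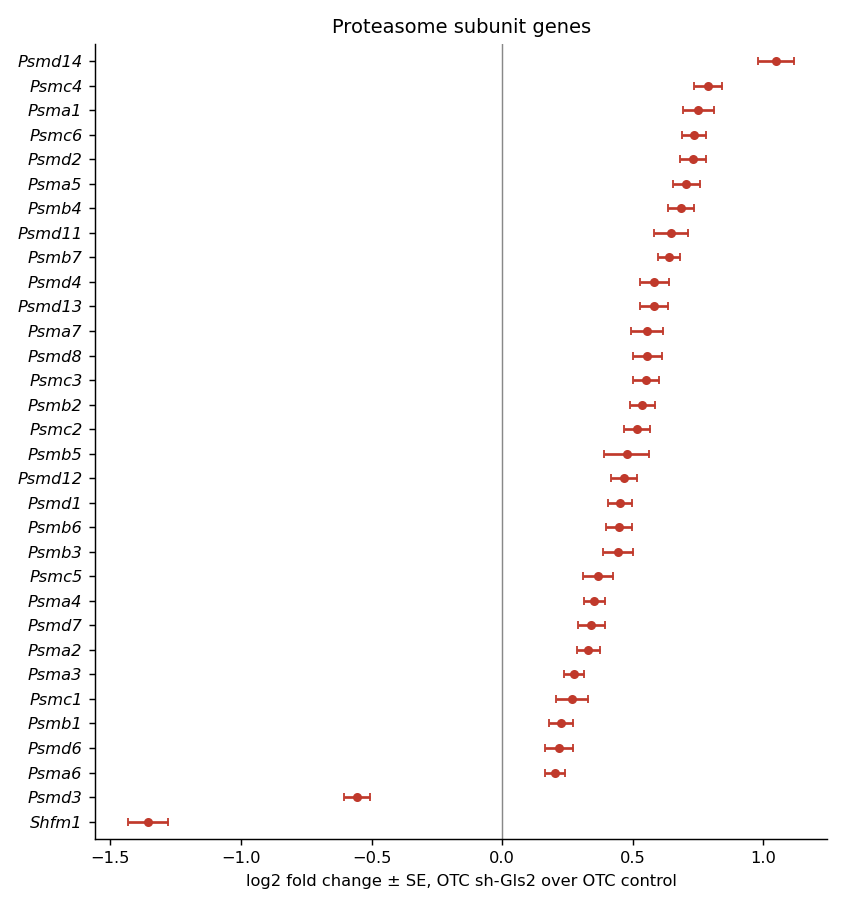
Log2 fold change with its SE for each of the 31 proteasome subunit genes and Shfm1, OTC sh-Gls2 over OTC control. All points lie right of 0 except Shfm1 at −1.36 and Psmd3 at −0.56.

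Genes known as NRF2 targets, which serve glutathione and detoxification, rose in 17 of 31 cases and fell in none (median 0.34), with 7 free of overlap. Gsr, glutathione reductase, had 101 to 142 CPM (median 115) in sh-Gls2 livers, against 57.3 to 85.2 CPM (median 63.6) in controls (log2 fold change 0.82 ± 0.081, adjusted p = 8.73e-12). Gsta1, a glutathione transferase whose reads may be shared with its close paralogs, had 78.2 to 245 CPM (median 129.95) in sh-Gls2 livers, against 1.70 to 27.2 CPM (median 10.01) in controls (log2 fold change 3.71 ± 0.41, adjusted p = 3.88e-10). Abcc4, an exporter of conjugates, had 10.4 to 52.4 CPM (median 24.2) in sh-Gls2 livers, against 1.31 to 6.85 CPM (median 2.96) in controls (log2 fold change 2.78 ± 0.37, adjusted p = 2.78e-08). Slc7a11, the cystine carrier, was low but higher in every sh-Gls2 liver, with 0.387 to 2.83 CPM, against 0 to 0.199 CPM in controls. Gstm3, Srxn1 and Hmox1 rose by 1.99 ± 0.35, 0.93 ± 0.18 and 0.51 ± 0.14 with overlap. Nqo1, often used as a marker of NRF2 activity, had 9.04 to 17.7 CPM (median 11.3) in sh-Gls2 livers, against 4.79 to 24.2 CPM (median 11.5) in controls. Nqo1 had no call (adjusted p = 0.908), nor had Gclc, of glutathione synthesis (adjusted p = 0.0532). Control mouse 35 held the highest control value for 13 of the 17 genes that rose. With mice 3 and 67 left out, 14 rose, none fell and the median was 0.21.

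Stretches of RefSeq promoters (GRCm38.p6) show the letters that NRF2 is known to read in some of these genes. The motif TGACNNNGC, searched on both strands in the 250 bases before each annotated start, was found for 7 of the 26 list genes with a promoter entry, against 14.04% of the 10080 tested genes with one. For proteasome genes the count was 4 of 25 (16%), near the share of all genes. Capitals mark the match, the sequences run 5′ to 3′ along the gene's strand, and they show matched members that rose, by smallest adjusted p. Genes on a chromosome not printed here were passed over, as for the motifs below.
Abcc4: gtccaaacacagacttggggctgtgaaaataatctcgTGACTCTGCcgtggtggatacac
Prdx1: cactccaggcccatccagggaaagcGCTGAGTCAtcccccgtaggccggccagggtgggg
Ugdh: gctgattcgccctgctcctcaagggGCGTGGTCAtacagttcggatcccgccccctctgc
Psmc6: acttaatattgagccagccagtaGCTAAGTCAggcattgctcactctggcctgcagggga
They lie at chr14:118676932-118676991 (minus strand), chr4:116685441-116685500 (plus strand), chr5:65435902-65435961 (minus strand) and chr14:45329574-45329633 (plus strand). Prdx1, a peroxiredoxin, rose by 0.30 ± 0.049 and Ugdh, which makes the sugar donor for glucuronidation, by 1.01 ± 0.19. A match is a description of the letters and not evidence of binding.

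Interferon-stimulated genes were higher. Of 43 such genes, 29 rose and 1 fell, with a median of 0.69, and their summed level was 1168 to 1815 CPM in sh-Gls2 livers, against 658 to 1436 CPM in controls. Ifit2, which binds foreign RNA, had 8.21 to 16.97 CPM (median 12.8) in sh-Gls2 livers, against 2.59 to 7.22 CPM (median 4.28) in controls (log2 fold change 1.47 ± 0.18, adjusted p = 1.82e-09). Oasl2, of the oligoadenylate synthetase family, had 6.29 to 12.9 CPM (median 10.1) in sh-Gls2 livers, against 2.65 to 5.20 CPM (median 3.09) in controls (log2 fold change 1.45 ± 0.20, adjusted p = 6.97e-08). Neither gene overlapped between the groups. Irf7, the factor that amplifies interferon production, had 66.7 to 170.2 CPM (median 112) in sh-Gls2 livers, against 34.3 to 70.6 CPM (median 56.3) in controls (log2 fold change 1.01 ± 0.20, adjusted p = 7.51e-05), with 9 of 10 sh-Gls2 livers above the highest control. Isg15 and Rsad2 rose by 0.63 ± 0.25 and 0.53 ± 0.21, and both calls were lost without mice 3 and 67 (adjusted p = 0.146 and 0.181). Ifit1 had no call (adjusted p = 0.112), and Stat2 fell by 0.34 ± 0.13. Control mouse 46 held the highest control value for 16 of the 30 genes called. Without mice 3 and 67 the list counted 25 higher and 1 lower.

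Sensors of foreign nucleic acid rose in 12 of 18 cases and fell in 1 (11 and 2 without mice 3 and 67). Ifih1, the long double-stranded RNA sensor MDA5, had 71.6 to 98.3 CPM (median 81.2) in sh-Gls2 livers, against 37.8 to 63.1 CPM (median 52.4) in controls, with no overlap (log2 fold change 0.69 ± 0.11, adjusted p = 5.63e-07). Zbp1, a sensor of Z-form nucleic acid, rose by 1.49 ± 0.25, Ddx58 (RIG-I) by 0.51 ± 0.11 and Tlr3 by 0.39 ± 0.092. Mavs, the mitochondrial adaptor of the RNA sensors, was the gene that fell, with 55.6 to 73.9 CPM (median 64.9) in sh-Gls2 livers, against 81.1 to 95.7 CPM (median 83.3) in controls (log2 fold change −0.40 ± 0.078, adjusted p = 3.87e-05), again without overlap. Of 13 genes of the RNA interference machinery, which processes hairpins, none rose and 4 fell (30.8%, against 22.5% of all genes tested). Among the 4 were Tnrc6c at −0.29 and Dicer1 at −0.14 (adjusted p = 0.0389, and 0.366 without mice 3 and 67). Size-factor scaling left 2 calls on this list, as did leaving out mice 3 and 67, so the list is not read as different from all genes.

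Antigen presentation genes rose in 10 of 19 cases and fell in none. B2m, the light chain of class I molecules, had 994 to 1247 CPM (median 1148) in sh-Gls2 livers, against 724 to 993 CPM (median 920.5) in controls, free of overlap (log2 fold change 0.34 ± 0.064, adjusted p = 2.17e-05). Tapbp, which loads peptides, rose by 0.52 ± 0.072 and Psmb8, a core subunit of the immunoproteasome, by 0.67 ± 0.13. Chemokines rose in 10 of 14 cases and fell in 1. Cxcl10, which draws T cells, had 5.93 to 12.5 CPM (median 7.60) in sh-Gls2 livers, against 0.973 to 4.40 CPM (median 2.70) in controls (log2 fold change 1.61 ± 0.26, adjusted p = 1.86e-06). Ccl2, which draws monocytes, had 1.40 to 4.12 CPM (median 2.39) in sh-Gls2 livers, against 0 to 0.852 CPM (median 0.259) in controls (log2 fold change 2.81 ± 0.37, adjusted p = 1.61e-08). Both were without overlap, though the Ccl2 counts were low. Cxcl12 fell by 0.29 ± 0.075. Without mice 3 and 67, 5 chemokines rose and 1 fell.

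The motif GAAA NN GAAA (written with spaces, N any base), the core of the interferon-stimulated response element, occurred in 16 of the 30 interferon-stimulated genes with a promoter entry, against 3.36% of all tested genes with one, searched as above. Shown are 4 of the genes that rose, chosen as above by the smallest adjusted p among those that carry it. The match is in capitals (TTTC NN TTTC where it lies on the other strand).
Cxcl10: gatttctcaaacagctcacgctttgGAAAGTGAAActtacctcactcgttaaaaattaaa
Oas3: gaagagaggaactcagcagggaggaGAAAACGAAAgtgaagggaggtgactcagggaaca
Trim30a: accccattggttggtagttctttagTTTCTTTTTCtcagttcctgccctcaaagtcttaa
Gbp2: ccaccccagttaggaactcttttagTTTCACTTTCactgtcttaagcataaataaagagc
These stretches are chr5:92349068-92349127 (minus strand), chr5:120777700-120777759 (minus strand), chr7:104465195-104465254 (minus strand) and chr3:142620579-142620638 (plus strand). Oas3, which senses double-stranded RNA, rose by 1.22 ± 0.23, the ubiquitin ligase Trim30a by 1.02 ± 0.20 and the guanylate-binding protein Gbp2 by 1.14 ± 0.25.

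Markers of other liver cells rose beside these genes. Of 24 macrophage and Kupffer cell markers, 21 rose and none fell (median 0.72), with a summed level of 397 to 637 CPM in sh-Gls2 livers, against 231 to 459 CPM in controls. Cd68 had 9.92 to 16.4 CPM (median 12.3) in sh-Gls2 livers, against 4.64 to 7.36 CPM (median 5.62) in controls (log2 fold change 1.15 ± 0.13, adjusted p = 4.45e-10), without overlap. The Kupffer cell lectin Clec4f had 47.6 to 71.2 CPM (median 61.1) in sh-Gls2 livers, against 22.9 to 53.9 CPM (median 38.9) in controls (log2 fold change 0.59 ± 0.13, adjusted p = 1.97e-04). Cd14, a lipopolysaccharide co-receptor, rose by 1.85 ± 0.29 without overlap, and Cd5l by 0.91 ± 0.17. In bulk tissue, more cells of a type and more RNA per cell cannot be told apart, and the part of these cells in the interferon, chemokine and antigen presentation results was not tested.

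Stellate cell and matrix genes rose in 14 of 20 cases and endothelial markers in 14 of 17, with no gene of either list lower. After leaving out mice 3 and 67, 11 stellate and 9 endothelial genes rose and none fell. Their summed levels were 490.3 to 640.2 CPM in sh-Gls2 livers, against 354 to 464 CPM in controls for the first, and 433 to 599 CPM in sh-Gls2 livers, against 319.6 to 494 CPM in controls for the second. Col4a1, a basement membrane collagen, had 32.995 to 45.6 CPM (median 37.2) in sh-Gls2 livers, against 13.7 to 29.3 CPM (median 19.2) in controls (log2 fold change 0.85 ± 0.13, adjusted p = 4.53e-07). Lrat, which stores vitamin A in stellate cells, had 23.6 to 37.5 CPM (median 30.8) in sh-Gls2 livers, against 12.3 to 21.2 CPM (median 16.04) in controls (log2 fold change 0.86 ± 0.18, adjusted p = 9.91e-05). Neither gene overlapped, and Pecam1, of endothelium, rose by 0.38 ± 0.089. Markers of blood leukocytes gave few calls, but few could be tested. These were 11 of 20 T and NK, 5 of 9 B and 4 of 10 neutrophil markers, and some, such as Trac and Igkc, were not among the listed genes. Of the 11 T and NK cell markers 1 rose, of the 5 B cell markers 1 fell and of the 4 neutrophil markers 1 fell (none without mice 3 and 67). The neutrophil marker Camp was at 0 in all 18 livers. Log2 fold changes were positive for 10 of the 11, 4 of the 5 and 3 of the 4 (medians 0.50, 0.38 and 0.28). So few genes at low counts cannot show that leukocytes did not change. The T and NK list summed to 7.65 to 16.7 CPM in sh-Gls2 livers, against 4.27 to 13.8 CPM in controls.

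Hepatocyte identity genes leaned lower, with 7 of 15 lower and 1 higher (median −0.24). Apoa1, the main protein of high-density lipoprotein, had 3898 to 5899 CPM (median 5240.1) in sh-Gls2 livers, against 6164 to 10231 CPM (median 7955) in controls, free of overlap (log2 fold change −0.66 ± 0.10, adjusted p = 5.99e-07). Foxa2 and Cebpa, transcription factors of hepatocytes, fell, with log2 fold changes of −0.78 ± 0.17 and −0.39 ± 0.11. Alb had 63991 to 86438 CPM (median 75191) in sh-Gls2 livers, against 62913 to 105529 CPM (median 78639) in controls, with no call (log2 fold change −0.10 ± 0.10, adjusted p = 0.425), and Hnf4a had none either (adjusted p = 0.342). Alb was the most abundant of these markers in both groups, as the liver label of the tissue implies.

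Of 39 cell division genes tested, 31 rose and 2 fell, with a median of 1.62, and their summed level was 134 to 265 CPM in sh-Gls2 livers, against 91.2 to 115 CPM in controls. Mki67, the proliferation antigen Ki-67, had 1.45 to 15.6 CPM (median 5.30) in sh-Gls2 livers, against 0.324 to 1.10 CPM (median 0.610) in controls (log2 fold change 3.27 ± 0.41, adjusted p = 5.98e-09). Ccnd1, the cyclin of entry into the cycle, had 44.5 to 121 CPM (median 58.8) in sh-Gls2 livers, against 2.11 to 20.3 CPM (median 10.3) in controls (log2 fold change 2.73 ± 0.33, adjusted p = 4.86e-09). E2f1, a factor of the start of DNA synthesis, had 2.02 to 4.51 CPM (median 3.08) in sh-Gls2 livers, against 0.324 to 1.77 CPM (median 1.19) in controls (log2 fold change 1.52 ± 0.18, adjusted p = 2.20e-09). For these 3 genes no sh-Gls2 liver fell within the control range, but the spread among sh-Gls2 livers was wide.

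Mitotic genes were low in absolute level. Ccnb1, cyclin B1, had 0.0906 to 4.17 CPM (median 1.31) in sh-Gls2 livers, against 0 to 0.313 CPM (median 0) in controls. Top2a, a topoisomerase of dividing cells, had 0.634 to 7.28 CPM (median 2.94) in sh-Gls2 livers, against 0.0540 to 0.836 CPM (median 0.352) in controls. Both overlapped. Esco2, which joins sister chromatids, had 1.82 to 6.65 CPM (median 3.84) in sh-Gls2 livers, against 0.108 to 0.745 CPM (median 0.380) in controls, without overlap (log2 fold change 3.29 ± 0.37, adjusted p = 2.69e-10). Mouse 21 held the highest sh-Gls2 value for 16 of the 33 genes called. The exceptions were Mcm7, of the replicative helicase, which fell by 0.50 ± 0.11 while the other 5 tested members of that helicase rose by 0.58 (Mcm4) to 1.20 (Mcm5), and Tk1, which fell by 0.48 ± 0.20. On the TPM scale 14 of the 39 genes passed the filter on low values, and of those 10 rose and 1 fell. Without mice 3 and 67, 34 rose and 1 fell.

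The box CCAAT, common in promoters of mitotic genes, occurred in 25 of the 31 cell division genes with a promoter entry, against 40.8% of all tested genes with one, searched as above. It is shown for 3 members that rose, chosen as above by the smallest adjusted p among those that carry it. Capitals mark the match nearest the start, and the Mki67 stretch holds another in lower case, on the other strand (attgg).
Mki67: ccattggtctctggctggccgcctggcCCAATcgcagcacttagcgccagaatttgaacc
Cenpe: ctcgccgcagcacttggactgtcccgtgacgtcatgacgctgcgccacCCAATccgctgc
Ccnb1: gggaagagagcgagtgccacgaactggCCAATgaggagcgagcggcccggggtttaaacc
They lie at chr7:135716488-135716547 (minus strand), chr3:135212503-135212562 (plus strand) and chr13:100786521-100786580 (minus strand). Cenpe, a kinesin of the kinetochore, rose by 3.27 ± 0.44.

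Of 22 targets of p53, 6 rose (27.3%, beside 20.1% of all genes) and 1 fell. Pmaip1, a pro-apoptotic gene also named Noxa, had 0.543 to 1.63 CPM (median 1.03) in sh-Gls2 livers, against 0.162 to 0.404 CPM (median 0.251) in controls, without overlap (log2 fold change 1.92 ± 0.28, adjusted p = 2.50e-07). Cdkn1a, the p21 cell cycle inhibitor, had 22.3 to 54.95 CPM (median 32.5) in sh-Gls2 livers, against 3.29 to 126 CPM (median 32.9) in controls, with no call (adjusted p = 0.652). Ei24 fell by 0.44 ± 0.078. Of 12 tested bile duct and progenitor markers, 5 rose, among them Prom1 at 3.27 ± 0.42, and 3 without mice 3 and 67. Cldn4, a tight junction gene of that list, had 0.354 to 2.16 CPM (median 1.16) in sh-Gls2 livers, against 0 to 0.309 CPM (median 0.162) in controls (log2 fold change 2.88 ± 0.40, adjusted p = 7.84e-08). Afp, the alpha-fetoprotein of fetal liver, had 1.13 to 3.26 CPM (median 2.06) in sh-Gls2 livers, against 0.309 to 0.952 CPM (median 0.609) in controls (log2 fold change 1.804 ± 0.29, adjusted p = 1.65e-06), and 3 of the 6 tested fetal genes rose. Of the 6 erythroid markers, none was called with all livers and 1 fell without mice 3 and 67.

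Of 30 cytochromes P450 of families 1 to 3, 9 rose and 2 fell (9 and 1 without mice 3 and 67, median 0.36 against 0.21 with all livers). Cyp3a11, the most abundant of the family 3A, had 6619.99 to 8076 CPM (median 7009.6) in sh-Gls2 livers, against 4165 to 7001 CPM (median 4833) in controls (log2 fold change 0.51 ± 0.12, adjusted p = 7.85e-04), and Cyp2a5, which oxidises coumarin, rose by 1.13 ± 0.27. Reads may be shared between close members of these families, including Cyp2a4 and Cyp2a5. Of 14 ABC exporters 6 rose and none fell (6 and 1 without mice 3 and 67). Abcb4, which flips phosphatidylcholine into bile, had 297 to 411 CPM (median 329) in sh-Gls2 livers, against 109.6 to 225 CPM (median 193) in controls (log2 fold change 0.93 ± 0.11, adjusted p = 4.16e-10). Abcb1a, a drug exporter, rose by 1.61 ± 0.29 without overlap and Abcg2 by 0.67 ± 0.096.

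Uptake transporters went both ways, with 3 of 12 higher, 3 lower and a median of 0.097 (3, 4 and −0.035 without mice 3 and 67). With all livers these shares, 25% each, were near those of all genes. Slc22a7, an organic anion carrier, had 5.39 to 26.7 CPM (median 15.9) in sh-Gls2 livers, against 0.108 to 2.14 CPM (median 0.788) in controls (log2 fold change 3.94 ± 0.45, adjusted p = 6.67e-10). The bile acid carrier Slc10a1 fell by 0.57 ± 0.12. Of 18 bile acid genes 1 rose (Abcb4) and 3 fell, and 2 rose and 4 fell without mice 3 and 67. Baat, which couples bile acids to taurine or glycine, had 123 to 194 CPM (median 149) in sh-Gls2 livers, against 178 to 239.8 CPM (median 216) in controls (log2 fold change −0.53 ± 0.069, adjusted p = 2.04e-08). Klb, the co-receptor for FGF15, was at −0.67.

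Among the 20 genes with the largest rises, chosen by fitted change above a level of 1 log2 CPM, 15 were free of overlap and 1, Cyp2a4, lost its call without mice 3 and 67. Lrtm2, a leucine-rich membrane protein, had 2.81 to 21.02 CPM (median 4.68) in sh-Gls2 livers, against 0.0449 to 0.324 CPM (median 0.151) in controls (log2 fold change 5.62 ± 0.52, adjusted p = 1.58e-12). Ly6d and Pls1, a surface antigen and an actin bundler of microvilli, rose by 4.89 ± 0.71 and 4.40 ± 0.41. Ttc39a had 2.80 to 4.91 CPM (median 3.53) in sh-Gls2 livers, against 0.0515 to 0.522 CPM (median 0.193) in controls. Ttc39aos1 had 5.43 to 7.39 CPM (median 6.25) in sh-Gls2 livers, against 0.119 to 0.522 CPM (median 0.234) in controls. By its name the second is an opposite-strand transcript of the first. The library kit keeps strand, but whether counting used it is not given in the sources used here, so their reads may not be separable. Slpi, a secreted protease inhibitor, Tff3, a trefoil peptide, and Elf3, an epithelial transcription factor, rose by 3.89 ± 0.35, 3.46 ± 0.53 and 3.21 ± 0.39. Ifi27l2b, an interferon-inducible gene with close paralogs, had 22.96 to 38.96 CPM (median 31.6) in sh-Gls2 livers, against 1.79 to 9.03 CPM (median 3.39) in controls (log2 fold change 2.91 ± 0.28, adjusted p = 7.68e-12). Ces2c, a carboxylesterase of a large family, had 32.3 to 109 CPM (median 61.2) in sh-Gls2 livers, against 1.08 to 16.7 CPM (median 7.04) in controls (log2 fold change 3.17 ± 0.29, adjusted p = 1.20e-12). Cml5 and Lrrc24 rose by 3.25 ± 0.61 and 3.22 ± 0.67, and Lrrc24 was not raised in every liver, with 0.103 to 25.4 CPM (median 16.9) in sh-Gls2 livers, against 0.135 to 2.42 CPM (median 1.85) in controls.

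The 20 largest falls were less even. Groups were free of overlap for 5 of them, Vldlr, Hnf4aos, Ntn3 and Lage3 included. Vldlr, a lipoprotein receptor, had 0.515 to 1.26 CPM (median 0.746) in sh-Gls2 livers, against 2.13 to 6.33 CPM (median 3.01) in controls (log2 fold change −2.08 ± 0.49, adjusted p = 5.87e-04). Lage3, of a transfer RNA modifying complex, had 2.43 to 4.09 CPM (median 3.10) in sh-Gls2 livers, against 6.58 to 11.7 CPM (median 9.48) in controls (log2 fold change −1.59 ± 0.11, adjusted p = 1.27e-17). Hnf4aos, transcribed opposite Hnf4a, had 0.780 to 1.82 CPM (median 1.45) in sh-Gls2 livers, against 2.59 to 5.40 CPM (median 4.29) in controls (log2 fold change −1.68 ± 0.19, adjusted p = 2.48e-10), with the same limit on strand.

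Of the 20, 6 had their highest control in mouse 3, and 4 turned sign without mice 3 and 67. Fam107a had 0.152 to 1.09 CPM (median 0.394) in sh-Gls2 livers, against 0.179 to 146 CPM (median 0.286) in controls, with the highest control far above the second at 9.67 CPM. Its log2 fold change was −5.31 with all controls and 0.91 without the 2 mice (adjusted p = 0.379). Ddit4, a stress-induced inhibitor of mTORC1, had 7.91 to 22.6 CPM (median 10.2) in sh-Gls2 livers, against 3.34 to 217 CPM (median 5.13) in controls, and its log2 fold change of −1.71 became 1.40 (adjusted p = 0.0203). Eif4ebp3 and Setdb2 turned to 0.49 and 0.08, and Phf11c shrank to −0.18, with no call for the 3. Amd1, of polyamine synthesis, had high values in 2 other controls, 18.7 CPM in mouse 35 and 18.3 CPM in mouse 46, around a median of 1.47 CPM.

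Several other large falls were in genes that varied widely within both groups. Hsd3b5, a male-biased enzyme of steroid metabolism, had 0.0552 to 1.16 CPM (median 0.316) in sh-Gls2 livers, against 0.199 to 12.1 CPM (median 1.40) in controls. Slco1a1, a male-biased organic anion carrier, had 1.04 to 49.01 CPM (median 2.07) in sh-Gls2 livers, against 0.595 to 150.1 CPM (median 44.9) in controls. Mup3, a major urinary protein with many near-identical copies, had 161 to 1613 CPM (median 363) in sh-Gls2 livers, against 184 to 4326 CPM (median 1637) in controls (log2 fold change −1.66 ± 0.47, adjusted p = 0.00384). Serpina1e, one of several near-identical antitrypsin genes, was called in 9 of the 27 alternative fits. Ces1f, Serpine2, Raet1a and Klf1 fell, with log2 fold changes of −1.71 ± 0.40, −1.58 ± 0.43, −1.68 ± 0.42 and −1.66 ± 0.25. Pnpla3, a lipid droplet enzyme that responds to feeding, fell by 1.93 ± 0.73.

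The male-biased list included 4 of these, Hsd3b5, Slco1a1, Mup3 and Serpina1e. Of 23 male-biased liver genes 5 fell (21.7%), near the 22.5% of all genes that fell, and none rose. Of 18 female-biased genes 7 rose and none fell. The median of the female-biased list was 0.56 with all livers, 1.56 without mice 3 and 67 and 0.11 over the 15 members tested when only the 2 groups were fitted. That of the male-biased list was −0.24 with all livers and −0.49 without mice 3 and 67, where 6 fell. The male-biased genes summed to 1699 to 22985 CPM in sh-Gls2 livers, against 1352 to 24654 CPM in controls. On the log2(TPM + 1) scale 2 male-biased genes fell, and the list median turned to 0.13. Igf1 and Igfals, which growth hormone induces, fell, with log2 fold changes of −0.50 ± 0.11 and −0.61 ± 0.13, the 2 called genes of 17 on that axis, where 1 rose and 3 fell without mice 3 and 67. Cd36, a fatty acid carrier on the female-biased list, had 133 to 329 CPM (median 208) in sh-Gls2 livers, against 17.99 to 83.2 CPM (median 28.7) in controls (log2 fold change 2.41 ± 0.42, adjusted p = 8.64e-06).

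In absolute terms, the 10 largest called gains in mean TPM (a share of transcripts, which accounts for gene length) held 6 mitochondrial transcripts. The mitochondrial COX1, of complex IV, had 44730.1 ± 2594 TPM in sh-Gls2 livers and 38543 ± 2792 TPM in controls (mean ± SD, n = 10 and 8). ND4, of complex I, had 16787 ± 1638 TPM in sh-Gls2 livers and 12597 ± 2143 TPM in controls. In counts their log2 fold changes were 0.17 ± 0.061 and 0.36 ± 0.085. CYTB, ND2, ND4L and ND5 were the other mitochondrial members, whereas ND1 and the ribosomal Rnr2 were among the largest losses. Apoe, of lipoprotein uptake, had 21976 ± 2099 TPM in sh-Gls2 livers and 18077 ± 2149 TPM in controls. Trf, transferrin, had 14568 ± 1598 TPM in sh-Gls2 livers and 11728 ± 2003 TPM in controls. Hpx, a heme carrier, was free of overlap in CPM, with 3776 to 6201 CPM (median 4046) in sh-Gls2 livers, against 2031 to 3571 CPM (median 2701) in controls (log2 fold change 0.65 ± 0.11, adjusted p = 4.10e-06). Among the 10 largest losses, Apoa1 had 9276 ± 1097 TPM in sh-Gls2 livers and 14388 ± 1954 TPM in controls. Apoa2 had 12337 ± 1114 TPM in sh-Gls2 livers and 14372 ± 2290.4 TPM in controls. Ass1, Mup3, Apoc1 and the near-identical Serpina1a, Serpina1b and Serpina1c were also in that set.

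Nuclear genes of oxidative phosphorylation fell in 22 of 34 cases and rose in 1 (Ndufa10), by small steps (median −0.18). Ndufb10, of complex I, had 59.3 to 69.8 CPM (median 65.4) in sh-Gls2 livers, against 76.8 to 102 CPM (median 83.8) in controls (log2 fold change −0.41 ± 0.06, adjusted p = 2.78e-07). Atp5o, of the ATP synthase, had 87.8 to 108 CPM (median 98.97) in sh-Gls2 livers, against 115 to 185 CPM (median 131) in controls (log2 fold change −0.48 ± 0.076, adjusted p = 8.98e-07). Both were without overlap. Control mouse 3 held the highest control value for 15 of the 23 genes called. Without mice 3 and 67, 12 fell and 1 rose. Of 22 TCA cycle genes, 6 fell and 2 rose (median −0.026). That balance turned without mice 3 and 67, with 3 lower and 4 higher (median 0.031). Fh1, fumarase, had 106 to 147 CPM (median 132) in sh-Gls2 livers, against 158 to 409.6 CPM (median 212) in controls (log2 fold change −0.89 ± 0.15, adjusted p = 3.15e-06), without overlap. Sdhd, a succinate dehydrogenase anchor, fell by 0.48 ± 0.073 without overlap, and Idh2, which makes mitochondrial NADPH, rose by 0.55 ± 0.12.

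Pyrimidine genes went both ways, with 3 of 15 higher (20%, beside 20.1% of all genes) and 5 lower (33.3%, beside 22.5%). Ctps2, which makes CTP with the amide nitrogen of glutamine, had 18.5 to 25.2 CPM (median 21.04) in sh-Gls2 livers, against 8.97 to 12.9 CPM (median 11.4) in controls (log2 fold change 0.93 ± 0.088, adjusted p = 2.38e-12). Dhodh, the mitochondrial step of pyrimidine synthesis, had 4.27 to 6.20 CPM (median 5.15) in sh-Gls2 livers, against 7.30 to 9.61 CPM (median 7.52) in controls (log2 fold change −0.61 ± 0.075, adjusted p = 4.52e-09). Dpys, of pyrimidine breakdown, had 96.1 to 133 CPM (median 113) in sh-Gls2 livers, against 153 to 219 CPM (median 164) in controls (log2 fold change −0.60 ± 0.12, adjusted p = 5.78e-05). None of the 3 overlapped.

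Glucose genes fell in 7 of 23 cases (30.4%, beside 22.5% of all genes) and rose in 5 (21.7%, beside 20.1%). Hk1 and Hk2, hexokinases of other tissues, rose by 0.41 ± 0.10 and 0.84 ± 0.26. Pfkl, liver phosphofructokinase, fell by 0.53 ± 0.072 and Pkm, the pyruvate kinase of other tissues, rose by 0.52 ± 0.10. Lipid genes gave few calls, with 3 of 26 lipogenic genes higher and 4 lower, and 1 of 26 genes of fatty acid oxidation higher and 2 lower. These counts without mice 3 and 67 were 4 and 6 lipogenic genes and 1 and 4 genes of oxidation, and the lipogenic median was −0.041, against 0.058 with all livers. Cidec, a lipid droplet protein, had 0.783 to 2.66 CPM (median 1.48) in sh-Gls2 livers, against 0.0515 to 0.440 CPM (median 0.202) in controls (log2 fold change 2.82 ± 0.94, adjusted p = 0.0129). Lpin1, a phosphatidate phosphatase, had 64.9 to 261 CPM (median 194) in sh-Gls2 livers, against 82.9 to 1896 CPM (median 122) in controls, and its log2 fold change of −1.37 became 0.59 without mice 3 and 67 (adjusted p = 0.154). Of 25 cholesterol synthesis genes 1 rose and 4 fell (Ebp at −0.43), and 1 rose and 7 fell without mice 3 and 67, with a median of −0.32 against −0.11 with all livers.

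Of 31 ATF4 targets, 10 rose and 5 fell (12 and 3 without mice 3 and 67). Atf3 had 3.53 to 7.46 CPM (median 4.35) in sh-Gls2 livers, against 0.515 to 2.18 CPM (median 1.25) in controls (log2 fold change 1.70 ± 0.21, adjusted p = 3.84e-09), without overlap. Trib3, an inhibitor of AKT, rose by 1.15 ± 0.33, while Ddit4 and Vldlr fell, as above. Of 19 chaperones of the endoplasmic reticulum 4 rose (21.1%, near the 20.1% of all genes), with Pdia6, a disulfide isomerase, at 0.58 ± 0.16. Without mice 3 and 67, 1 was higher. Cytosolic chaperones fell in 6 of 18 cases and rose in 1, and Hspa8, the constitutive HSP70, had 655 to 1021 CPM (median 837) in sh-Gls2 livers, against 891 to 1814 CPM (median 1173) in controls (log2 fold change −0.63 ± 0.15, adjusted p = 6.89e-04). Of 15 glucocorticoid-responsive genes 1 rose (Lcn2) and 1 fell (Tat), with a median of −0.11, and control mouse 3 held the highest control value of both. When mice 3 and 67 were left out, 3 rose and none fell, and the median was 0.60. Of 20 clock genes 2 fell and none rose, and 1 rose without mice 3 and 67. Cry1 and Nfil3, repressors in the clock, fell, with log2 fold changes of −0.84 ± 0.26 and −1.04 ± 0.34.

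Acute phase proteins rose in 9 of 23 cases and fell in 4 (8 and 2 without mice 3 and 67). Orm2, an acid glycoprotein with close paralogs, had 10.3 to 56.4 CPM (median 30.4) in sh-Gls2 livers, against 0.928 to 4.96 CPM (median 2.09) in controls (log2 fold change 3.54 ± 0.43, adjusted p = 4.07e-09), without overlap. Lcn2, which binds bacterial iron carriers, had 14.1 to 39.7 CPM (median 21.5) in sh-Gls2 livers, against 0.541 to 16.05 CPM (median 2.04) in controls (log2 fold change 2.35 ± 0.67, adjusted p = 0.00393). Saa1, a serum amyloid of another paralog group, rose by 1.83 ± 0.59. Complement and coagulation genes, in contrast, fell in 12 of 28 cases and rose in 3. Cfi, which inactivates C3b, had 619 to 766 CPM (median 683) in sh-Gls2 livers, against 429.9 to 602 CPM (median 488) in controls (log2 fold change 0.42 ± 0.062, adjusted p = 2.98e-07), while C3 fell by 0.33 ± 0.096 and the coagulation factor F11 at −0.54 ± 0.13.

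WT livers that received the same vector have controls of their own. Of the 2672 genes that rose in OTC livers, 1743 also rose in WT livers and 1 fell, and of the 2993 that fell, 1653 also fell and 4 rose. The WT comparison, sh-Gls2 against control, called 2339 of the 13311 genes tested higher and 2290 lower. In it, 39 of 43 interferon-stimulated genes rose, 30 of 31 proteasome genes rose and Psmd3 was again the 1 that fell. Of 8 urea cycle genes 1 was lower in WT livers, near the share of all genes, with a list median of −0.14. A test of the difference itself, the sh-Gls2 effect in OTC minus that in WT, called 44 genes (0.331%), 15 with a positive and 29 with a negative difference, and no gene of the urea cycle or proteasome lists. At an unadjusted p below 0.05, 1487 genes passed.

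Of the 44, 32 had the same sign in both strains. Ces2c changed by 3.17 in OTC and 1.08 in WT livers (difference 2.09 ± 0.36, adjusted p = 0.00343). Slc13a3 rose by 2.38 in OTC, against 0.94 in WT (difference 1.44 ± 0.27), and Rhbg by 2.34 in OTC, against 1.18 in WT (difference 1.17 ± 0.25). Cyp2a12, a P450, rose by 0.96 in OTC, against 0.30 in WT (difference 0.66 ± 0.12), and had 559 to 856 CPM (median 674) in sh-Gls2 livers, against 272 to 482 CPM (median 344) in controls. E2f1 had a difference of 1.11 ± 0.24, and Cyp2c40 one of 8.19 ± 1.75 that rests on a transcript with at most 11.7 CPM in OTC sh-Gls2 livers and 2.26 CPM in OTC controls.

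In the other direction, Pfn2, a profilin of actin assembly, rose in both strains but less in OTC, at 1.85, against 3.17 in WT (difference −1.32 ± 0.23). Rpl3, a ribosomal protein, fell by 0.84 ± 0.086 in OTC, with a log2 fold change of −0.18 in WT (difference −0.66 ± 0.12). Nlrp6, an inflammasome sensor, had 57.9 to 96.3 CPM (median 71.3) in sh-Gls2 livers, against 156 to 239.9 CPM (median 179.9) in controls. Its log2 fold change was −1.34 in OTC and −0.70 in WT (difference −0.63 ± 0.12). Usp18, an interferon antagonist, had log2 fold changes of 0.30 in OTC and 1.77 in WT (difference −1.47 ± 0.30, adjusted p = 0.0157), the interferon-stimulated gene with a called difference. Gpi1, of glycolysis, and Zcchc7 had differences of −0.47 ± 0.093 and −0.57 ± 0.11. The count of 44 fell to 10 without OTC control mice 3 and 67, to 17 without mouse 3 alone and to 14 without control mouse 35 alone.

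**Figure D5:**
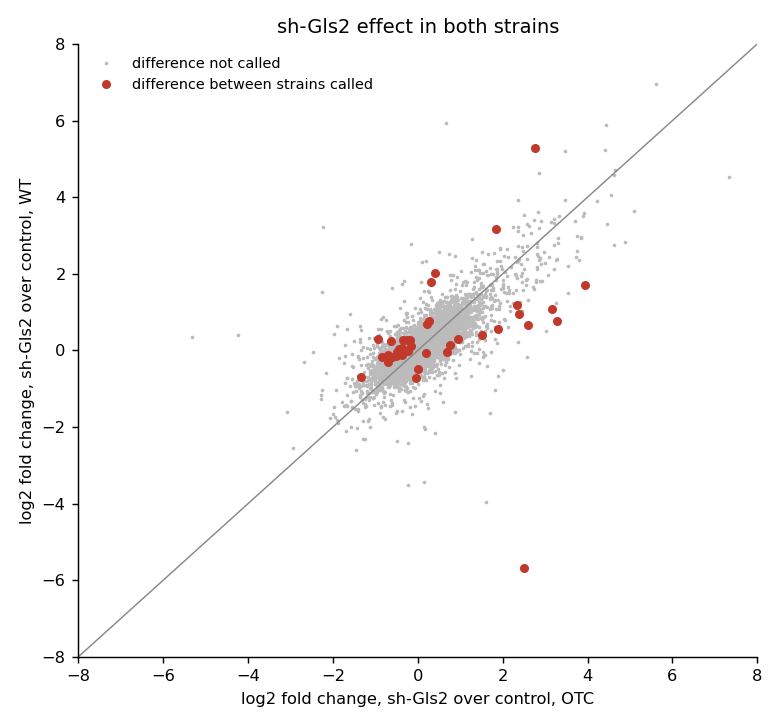
Log2 fold change of sh-Gls2 over control in OTC livers (horizontal axis) and in WT livers (vertical axis) for each of the 13311 genes tested, with equal change on the diagonal. The 44 genes whose difference between strains was called are in red, with Cyp2c40 furthest below the diagonal.

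A direct contrast of OTC sh-Gls2 with OTC sh-Glud1 livers, which carry another hairpin, called 5383 genes (40.4%), of which 2587 were higher (19.4%) and 2796 lower. Glud1 served as a check, with 933 to 1181 CPM in sh-Gls2 livers, against 282 to 588 CPM in sh-Glud1 livers. Both comparisons share the sh-Gls2 livers. Proteasome genes were higher in sh-Gls2 than in sh-Glud1 livers in 30 of 31 cases, with Psmc6 at 0.70 ± 0.046, Psmb7 at 0.59 ± 0.042 and Psmd14 at 0.90 ± 0.068. Psmd3 and Shfm1 were lower in sh-Gls2 livers, at −0.60 ± 0.048 and −1.37 ± 0.075. Cell division genes were higher in 31 of 39 cases and lower in 2. Interferon-stimulated genes were higher in 20 of 43 cases and lower in 1, urea cycle genes were lower in 7 of 8, and macrophage markers were higher in 20 of 24.

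The genes with the smallest adjusted p between the 2 hairpins also stood apart from controls. Slc20a2, a phosphate carrier, had 28.99 to 35.6 CPM (median 31.7) in sh-Gls2 livers, against 64.8 to 88.4 CPM (median 74.6) in controls, and its log2 difference from sh-Glud1 livers was −1.33 ± 0.068. Gnai3, an inhibitory G protein subunit, had 48.4 to 64.2 CPM (median 60.01) in sh-Gls2 livers, against 82.5 to 120.01 CPM (median 111) in controls, and its log2 difference from sh-Glud1 livers was −0.85 ± 0.056. Nlrp6 and Lage3 were lower than in sh-Glud1 livers, at −1.31 ± 0.085 and −1.59 ± 0.11. Slc22a18, a transporter of an imprinted region, and Ccdc120, which organises microtubules, were higher by 0.92 ± 0.068 and 2.56 ± 0.19. In WT livers, sh-Gls2 over control, the log2 fold change was −1.27 for Slc20a2, −0.85 for Gnai3, −1.32 for Lage3 and −1.17 for Shfm1, and none of these had a called difference between strains. Cholesterol synthesis genes, with 5 calls against control, were lower than in sh-Glud1 livers in 22 of 25 cases. In WT livers, sh-Gls2 against control, 19 of the 25 were lower and 0 higher (median −0.60), against 4 lower in OTC livers (median −0.11). The called differences between strains on this list numbered 0.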

How the data were processed

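Liver poly(A) RNA of male mice, 1 library per mouse, was sequenced from stranded libraries amplified by PCR without molecular identifiers. CASAVA 1.8.2, FastQC and GRCm38 are named in the submitters' processing notes, and the aligner, the counter and its strand setting are not given in the sources used here. The authors deposited raw gene counts, in which 4775 of 24475 genes had no count, and a table of TPM per gene for the same libraries. Total counts were 14489866 to 22781052 per library, and intervals and p-values cover the spread between mice, with counting error inside it. One OTC control column carries a mouse number that no title of its group repeats, and it was used by its group.

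Counts were tested with edgeR 4.0.16 (R 4.3.3) by the quasi-likelihood F test on all 55 libraries with 6 group terms, after TMM scaling and edgeR's filter (minimum count 10, minimum total 15), two-sided, with Benjamini-Hochberg adjustment over the 13311 genes tested and a threshold of 0.05. Alternatives used DESeq2 1.42.0 and limma 3.58.1 on log2(TPM + 0.1) and log2(TPM + 1), restricted to genes averaging 1 TPM or more, scales that understate changes of low genes. The pipeline was tested on simulated data with few genes changed and no outlying libraries, which checks the code and not the calls made here. No 2 libraries of a group agreed within sampling noise (chi-square per degree of freedom at least 21.3 in 45 pairs of OTC sh-Gls2 libraries and 31.2 in 28 pairs of OTC control libraries).

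Genes were named by rule: Gls2, Glud1 and Otc, the 20 highest and 20 lowest fold changes past the threshold whose average log2 CPM reached 1 and whose name is not that of a predicted gene, the 10 largest called rises and falls in mean TPM, members of 45 gene lists, and the 5 genes of smallest adjusted p in each direction for the difference between strains and between hairpins. Exceptions are marked in the text, and a few genes that the rule takes in are not reported here. Members and lists were chosen with earlier results of these data known, so no p-value was adjusted over a list and no set test was run. Promoters came from RefSeq (GRCm38.p6).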

Additional observations from a re-analysis of the deposited data

Results flagged for a closer look

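In 164 groups of livers, 2 for each of the 82 genes given per group above, 12 held a highest library that stood far from the others by Dixon's criterion at the 95% level. Chance flags about 1 in 20 groups. No cause was tested for any of them.

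Among OTC sh-Gls2 livers, mouse 4 held 1571 CPM of Arg1, against 1282 CPM in the next liver, and 96.3 CPM of Nlrp6, against 77.5 CPM in the next. Mouse 21 held 7.46 CPM of Atf3 (next 5.598 CPM) and 12.5 CPM of Cxcl10 (next 8.86 CPM). Mouse 39 held 194 CPM of Baat (next 159.9 CPM) and 49.01 CPM of Slco1a1 (next 14.2 CPM).

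Among OTC controls, mouse 3 held 217 CPM of Ddit4 (next 75.3 CPM) and 146 CPM of Fam107a (next 9.67 CPM), and mouse 67 held 9.61 CPM of Dhodh (next 8.12 CPM). Mouse 43 held 330.2 CPM of Amdhd1 (next 241 CPM), mouse 38 held 0.313 CPM of Ccnb1 (next 0.0993 CPM) and mouse 35 held 239.9 CPM of Nlrp6 (next 195 CPM).

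The sh-Gls2 effect differed between strains, by the test of the difference at an adjusted p below 0.05, for 16 of the genes named above. The difference of log2 fold changes, OTC minus WT, was 2.09 for Ces2c, 0.66 for Cyp2a12, 8.19 for Cyp2c40, 1.11 for E2f1, 2.51 for Prom1, 1.17 for Rhbg, 1.44 for Slc13a3 and 2.23 for Slc22a7. It was −0.43 for Dhodh, −0.47 for Gpi1, −0.87 for Hspa8, −0.63 for Nlrp6, −1.32 for Pfn2, −0.66 for Rpl3, −1.47 for Usp18 and −0.57 for Zcchc7. For Hspa8 the log2 fold change was −0.63 in OTC and 0.24 in WT livers.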

How the results depend on the processing

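Across 9 alternatives in scaling, filter, test, unit and samples, and with each of the 18 livers left out, the Gls2 log2 fold change stayed between −1.19 and −1.09 and below the threshold. The count of 5665 called genes in OTC sh-Gls2 livers against OTC controls ranged from 4544 on log2(TPM + 0.1) to 5746 with mouse number as a covariate, and from 5323 to 5646 with single livers left out. The count against OTC sh-Glud1 livers, 5383, ranged from 4455 to 5694 and was also within 1.5 times throughout.

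The 44 genes that differed between strains (15 positive, 29 negative) were the least stable result. DESeq2's Wald test gave 76 (28 and 48), the fit of the compared groups alone 19 (7 and 12), log2(TPM + 1) 21 (8 and 13), log2(TPM + 0.1) 23 (9 and 14), no filter on low counts 26 (15 negative), and the fit without OTC control mice 3 and 67 gave 10 (5 and 5). With single livers left out the count was 14 to 64, with 5 to 20 positive and 9 to 44 negative differences. Libraries whose absence moved it by over 1.5 times were OTC control mice 35, 3 and 67 (14, 17 and 29 genes), OTC sh-Gls2 mice 31, 49 and 74 (21, 24 and 25), WT sh-Gls2 mice 34 and 14 (26 and 27) and WT control mice 10 and 19 (26 and 27). The cause was not tested.

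Of 180 called genes named above, 150 kept their call under every alternative that tested them, single livers left out included, and 30 lost it under at least 1. Without control mice 3 and 67, 6 turned sign: Ddit4 to 1.40, Fam107a to 0.91, Lpin1 to 0.59, Eif4ebp3 to 0.49, Tat to 0.11 and Setdb2 to 0.080. Ddit4 also turned on log2(TPM + 0.1), to 0.17, and on log2(TPM + 1), to 0.084. Genes at a few counts per library, such as Ccnb1, Slc7a11 and Cyp2c40, carry fitted changes that depend on the prior count.

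No paired analysis was possible because mouse numbers are unique and no number is shared between the groups compared.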
